A study of Mus musculus with 24 samples.

Results

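The genes described here are 10 markers of the brain vessel wall: 8 of endothelial cells (Cldn5, Pecam1, Flt1, Tek, Slc2a1, Abcb1a, Vwf and Mfsd2a) and 2 of pericytes (Pdgfrb and Rgs5). They were chosen by name from 18193 genes measured on whole-genome Affymetrix mouse arrays, and every probe set that carried only 1 of these symbols was used, 20 in all. The arrays held forebrain RNA of 24 mice, 4 mice in each of 6 groups and 1 array per mouse. The groups were TgCRND8 mice, which carry a human amyloid precursor protein transgene with the Swedish and Indiana mutations (APPSwe/Ind), at 70, 80 and 150 days of age, and non-transgenic littermates at the same 3 ages, called controls below. The promoter of the transgene, the strain background and the sex of the mice are not given in the sources used here. Values are deposited log2 signals, so that a difference of 1 stands for a 2-fold change, and a gene with several probe sets is represented by the brightest of them.

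Endothelial cells line the capillaries of the brain and seal them with tight junctions, while transporters in their membranes select what enters the tissue, which together form the blood-brain barrier. Pericytes wrap these capillaries, share their basement membrane and are recruited during development by platelet-derived growth factor that endothelial cells release. Vessel changes and amyloid in vessel walls are part of the pathology described in Alzheimer disease and its mouse models. Vessel cells are a small share of forebrain tissue, and in bulk RNA fewer vessel cells and less RNA per vessel cell cannot be told apart.

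Levels of the vessel genes in TgCRND8 forebrain lay close to those in control forebrain at every age. At day 70, 0 of the 10 genes passed the test (limma across all genes, Benjamini-Hochberg adjusted p under 0.05), where 0% of all genes passed, and 4 genes read higher and 6 lower. At day 80, 0 of 10 passed against 0% of all genes, with 4 higher and 6 lower. At day 150, 0 of 10 passed against 0.121% of all genes, 22 of 18193, with 7 higher and 3 lower. At an unadjusted p under 0.05 the count was also 0 of 10 at each age, where 3.25%, 3.77% and 4.38% of all genes reached it at days 70, 80 and 150. The 4 TgCRND8 and the 4 control values overlapped for each of the 10 genes at each age, while 2.36%, 1.25% and 3% of all genes had groups that did not overlap. The median difference of the 10 genes was -0.05 log2 at day 70, -0.00090 at day 80 and 0.12 at day 150, beside medians of -0.0031, 0.0022 and 0.00044 over all genes.

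The intervals show which sizes of difference these arrays allow. All 30 intervals of 95%, 10 genes at 3 ages, stayed within a 2-fold change in either direction. The lowest bound was -0.62, or 0.651-fold, and the highest was 0.72, or 1.64-fold, both for Pdgfrb. An interval reached a median of 0.32 log2 to either side, so smaller differences were mostly not detectable by this fit with 4 mice per group. The fit has no term for the replicate number in the labels, so its intervals include variation shared by mice of 1 number. In the day 150 fit within pairs of that number, given below, the standard error was 0.09 for Pdgfrb, against 0.23 here. For Rgs5 it was 0.109 in both fits. The intervals are not adjusted for the number of genes, and differences above 0.32 could also fail the adjusted test. F3, for example, which belongs to the wider vessel lists given below, differed by -0.35 at day 70 and did not pass (limma adjusted p = 0.9997). Which cells gave its signal was not tested. A pair of glial genes shows what passed on the same arrays. Gfap, the intermediate filament of reactive astrocytes, averaged 8.56 ± 0.216 in TgCRND8 forebrain and 7.15 ± 0.154 in control forebrain at day 150 (SD, n = 4 each), a difference of 1.42 (interval 1.13 to 1.71; limma adjusted p = 2.14e-06). Cst7, the cystatin F gene of activated microglia, averaged 4.55 ± 0.297 in TgCRND8 and 2.96 ± 0.067 in control forebrain at that age, a difference of 1.59 (limma adjusted p = 5.49e-10).

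**Figure D1:**
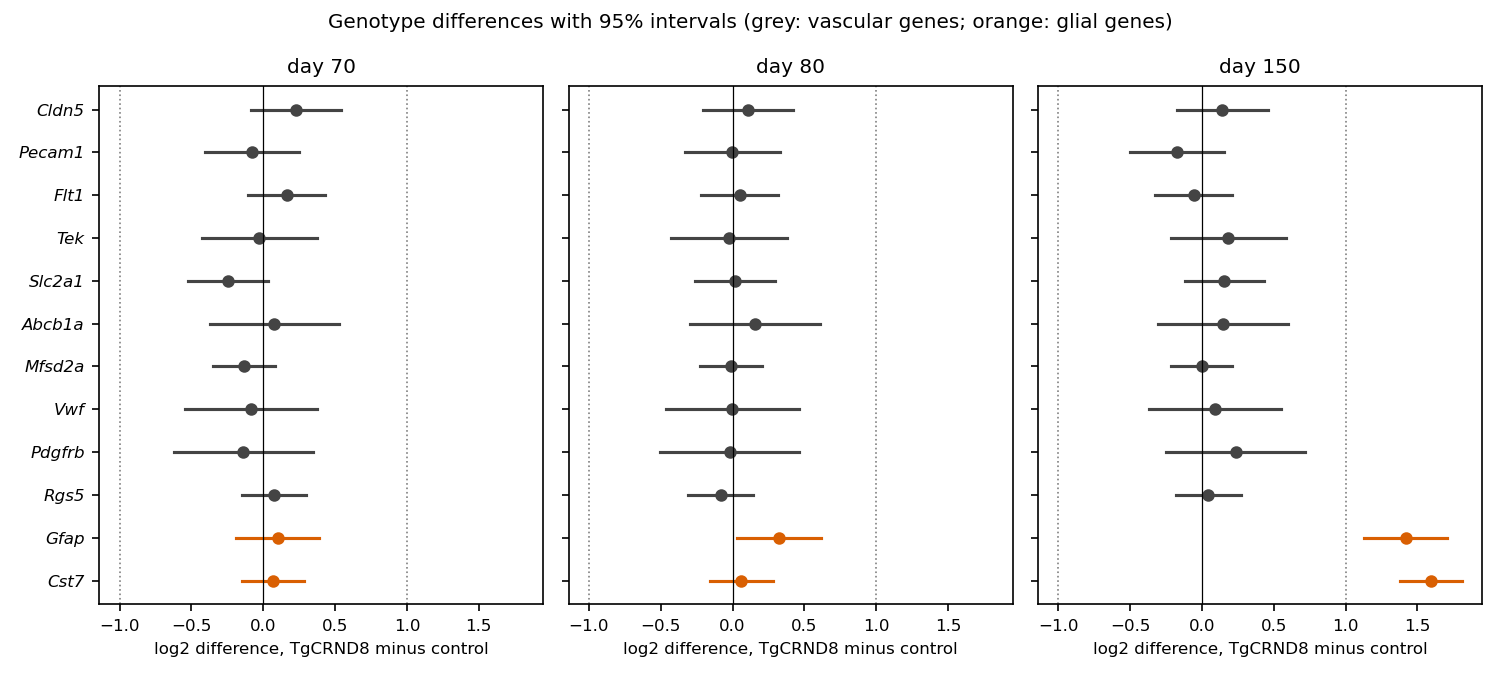
Difference in log2 signal between TgCRND8 and control forebrain (points) with 95% intervals (lines) at days 70, 80 and 150 for the 10 vessel genes (grey) and the glial genes Gfap and Cst7 (orange); dotted lines mark a 2-fold change. All vessel intervals span 0 and stay inside the dotted lines, whereas Gfap and Cst7 lie at 1.42 and 1.59 at day 150.

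Cldn5 encodes claudin-5, the main strand protein of endothelial tight junctions in the brain. At day 70 it read 7.56, 7.42, 7.43 and 7.27 in TgCRND8 forebrain, against 7.47, 7.06, 6.89 and 7.35 in control forebrain. At day 80 the values were 7.22, 6.91, 6.82 and 7.59 in TgCRND8 mice and 7.34, 6.90, 6.75 and 7.13 in controls. At day 150 they were 7.45, 7.21, 6.78 and 7.16 in TgCRND8 mice and 7.02, 7.02, 7.02 and 6.97 in controls. The 4 controls of day 150 were almost identical while the TgCRND8 mice of that age spread to both sides of them, and the groups overlapped at each age. The difference was 0.23 at day 70, 0.11 at day 80 and 0.14 at day 150. Leaving out 1 array gave -0.05 at day 80 (without the fourth TgCRND8 mouse) and 0.04 at day 150 (without the first TgCRND8 mouse), while at day 70 the difference stayed between 0.13 and 0.32. Over the 3 ages together Cldn5 differed by a mean of 0.16 (standard error 0.0884, interval -0.02 to 0.34), and did not pass (limma unadjusted p = 0.0832, adjusted p = 0.9996). Averaged over the ages, 0 of the 10 genes passed against 0.0385% of all genes, and 0 of 10 reached an unadjusted p under 0.05 against 3.16%.

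Pecam1, the adhesion molecule CD31 at endothelial cell borders, had the opposite lean. At day 150 it read 4.18, 3.80, 3.72 and 4.05 in TgCRND8 forebrain, against 4.20, 4.10, 4.03 and 4.11 in control forebrain. The TgCRND8 mice held both the lowest values and 1 value near the top of the controls. The difference was -0.17 at day 150 (interval -0.50 to 0.16), -0.08 at day 70 and -0.00079 at day 80, and no age passed. The lowest group mean of Pecam1 was that of TgCRND8 mice at day 150, 3.94 ± 0.215, and the highest that of controls at day 70, 4.31 ± 0.388 (SD, n = 4 each).

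The receptors Flt1 and Tek receive growth factor signals at the endothelial surface: Flt1 binds vascular endothelial growth factor, and Tek, also called Tie2, binds angiopoietins. Flt1 averaged 6.44, 6.47 and 6.33 in TgCRND8 mice at days 70, 80 and 150, against 6.28, 6.42 and 6.39 in controls. Its differences of 0.16, 0.05 and -0.06 were each smaller than the within-group standard deviation of 0.20. Tek at day 150 read 4.87, 3.85, 3.83 and 3.91 in TgCRND8 mice and 3.99, 3.74, 3.95 and 4.04 in controls. Only the first TgCRND8 mouse stood above all controls, and the other 3 lay within their range. The Tek difference of 0.18 at day 150 (interval -0.22 to 0.58; exact permutation p = 0.8, two-sided, n = 4 per group) turned to -0.07 when that array was left out. At days 70 and 80 Tek differed by -0.03 at both ages.

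Of the transporters, Slc2a1, which encodes the glucose carrier GLUT1, had the largest genotype difference of the 10 genes at any age. At day 70 it read 7.64, 7.53, 7.66 and 7.41 in TgCRND8 forebrain, against 7.99, 7.56, 7.47 and 8.21 in control forebrain. At day 80 the values were 7.74, 7.40, 7.86 and 7.57 in TgCRND8 mice and 7.84, 7.70, 7.54 and 7.42 in controls. At day 150 they were 7.72, 7.64, 7.52 and 7.80 in TgCRND8 mice and 7.62, 7.35, 7.36 and 7.73 in controls. The day 70 controls split into 2 high and 2 lower mice, and the TgCRND8 mice lay near the lower ones. The difference was -0.25 at day 70 (interval -0.52 to 0.03; exact permutation p = 0.314, two-sided, n = 4 per group), 0.02 at day 80 and 0.16 at day 150. The change in this difference between day 150 and the mean of the younger ages was 0.27 (standard error 0.164, interval -0.07 to 0.61) and did not pass (limma adjusted p = 0.872). For that change, 0 of the 10 genes passed against 0.011% of all genes, and 0 of 10 reached an unadjusted p under 0.05 against 5.75%. The highest Slc2a1 array, the fourth day 70 control at 8.21, was 1 of 5 arrays on which Xist, the RNA of the inactive X chromosome in females, was low (at most 3.50, against at least 9.36 on the other 19). Without the 5 arrays, Slc2a1 differed by -0.11 at day 70.

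Abcb1a encodes P-glycoprotein, the pump that returns drugs and lipids to the blood. It averaged 5.33 ± 0.301, 5.32 ± 0.338 and 5.44 ± 0.268 in TgCRND8 mice at days 70, 80 and 150, against 5.25 ± 0.438, 5.17 ± 0.337 and 5.29 ± 0.44 in controls (SD, n = 4 each). The differences of 0.08, 0.15 and 0.15 were each smaller than the standard deviation of any group. Without 1 array, the third control of the age, the difference was -0.09 at day 70 and -0.03 at day 150. Mfsd2a carries lipids with omega-3 fatty acids across the endothelium and restrains vesicle transport through it. At day 70 it read 6.07, 6.05, 6.20 and 5.96 in TgCRND8 mice, against 6.27, 5.97, 6.27 and 6.30 in controls. Of the 4 controls, 3 lay above every TgCRND8 mouse and 1 lay near the lowest of them. Mfsd2a differed by -0.14 at day 70 (interval -0.35 to 0.08), -0.01 at day 80 and -0.0023 at day 150. Leaving out 1 array moved the day 70 value between -0.21 and -0.10.

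Vwf encodes von Willebrand factor, the clotting protein that endothelial cells store and secrete. At day 150 it read 4.14, 3.76, 3.41 and 3.51 in TgCRND8 mice and 3.58, 3.45, 3.64 and 3.78 in controls. The TgCRND8 values bracketed those of the controls. Its differences were -0.09, -0.0010 and 0.09 at days 70, 80 and 150. The Vwf probe set was dim, below the lower quartile of its array on 5 of 24 arrays, whereas those of the other 9 genes were above it on all 24.

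Pdgfrb, the receptor for the platelet-derived growth factor that recruits pericytes, varied most within groups. At day 70 it read 5.63, 5.70, 5.19 and 4.86 in TgCRND8 forebrain, against 5.63, 5.46, 4.84 and 5.99 in control forebrain. At day 80 the values were 5.63, 4.94, 5.02 and 5.30 in TgCRND8 mice and 5.63, 5.47, 4.65 and 5.22 in controls. At day 150 they were 5.82, 5.42, 5.17 and 5.33 in TgCRND8 mice and 5.72, 4.83, 5.02 and 5.23 in controls. Mice of 1 group differed by up to more than 1 log2, and the groups overlapped widely at each age. The difference was -0.14 at day 70, -0.02 at day 80 and 0.24 at day 150 (interval -0.25 to 0.72). Single arrays moved the day 150 value widely, to 0.11 without the first TgCRND8 mouse and to 0.41 without the first control. Its change between day 150 and the younger ages was 0.31 (standard error 0.287; limma adjusted p = 0.921).

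Rgs5, a brake on G protein signalling that is abundant in brain pericytes, was among the steadiest of the 10. It averaged 8.37 ± 0.179, 8.23 ± 0.0987 and 8.21 ± 0.213 in TgCRND8 mice at days 70, 80 and 150, against 8.29 ± 0.165, 8.31 ± 0.0209 and 8.16 ± 0.21 in controls (SD, n = 4 each). The differences were 0.08, -0.08 and 0.04, and the largest bound of their intervals was -0.31 at day 80. In the fit without the replicate number, the pericyte markers Pdgfrb and Rgs5 therefore gave intervals of unlike width. At day 150 these were 0.843 to 1.64-fold for Pdgfrb and 0.882 to 1.21-fold for Rgs5.

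At day 150 the mice that share a replicate number also shared part of their deviations over all genes, with r of 0.14 to 0.26 in the 4 pairs, so the genotypes were also compared within these pairs. Pdgfrb read higher in the TgCRND8 mouse of each pair, by 0.11, 0.59, 0.15 and 0.09. Slc2a1 did so by 0.10, 0.29, 0.16 and 0.08, and Pecam1 read lower in each pair, with differences of -0.02, -0.31, -0.30 and -0.05. Thus 3 of the 10 genes kept 1 direction in all 4 pairs, as did 16.5% of all genes. These values are of the brightest probe set, and the day 150 direction of Pdgfrb and Slc2a1 was not the same in all their probe sets, as given below. The fourth pair held the control with high signal of cerebellar genes (Pcp2 at 6.27). In a limma fit of the 8 arrays of day 150 with the number as a block, 0 of the 10 passed against 0.176% of all genes, and the same 3 reached an unadjusted p under 0.05 (3 of 10, against 8.85% of all genes). Their limma p was 0.0234 for Pdgfrb (adjusted p = 0.490), 0.0467 for Slc2a1 (adjusted p = 0.558) and 0.0451 for Pecam1 (adjusted p = 0.552). In the fit of all 24 arrays with the number as a block, 0 of the 10 passed, and the unadjusted limma p of these 3 was 0.186, 0.221 and 0.201. The day 150 fit was chosen after the data were seen.

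The day 80 values rested on 4 of the 5 arrays with low Xist, 2 in each genotype. Without the 5 arrays, 2 mice of each genotype were left at day 80, and Cldn5 differed by 0.43 (limma unadjusted p = 0.0449, adjusted p = 0.305), Tek by 0.33, Pecam1 by 0.28 and Mfsd2a by -0.23. Again 0 of the 10 genes passed, while 35 of the 18193 genes did. How many of all genes reached an unadjusted p under 0.05 in this fit was not counted. The choice to leave these arrays out was made after the data were seen, and the part that Xist status plays in the vessel values was not tested.

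**Figure D2:**
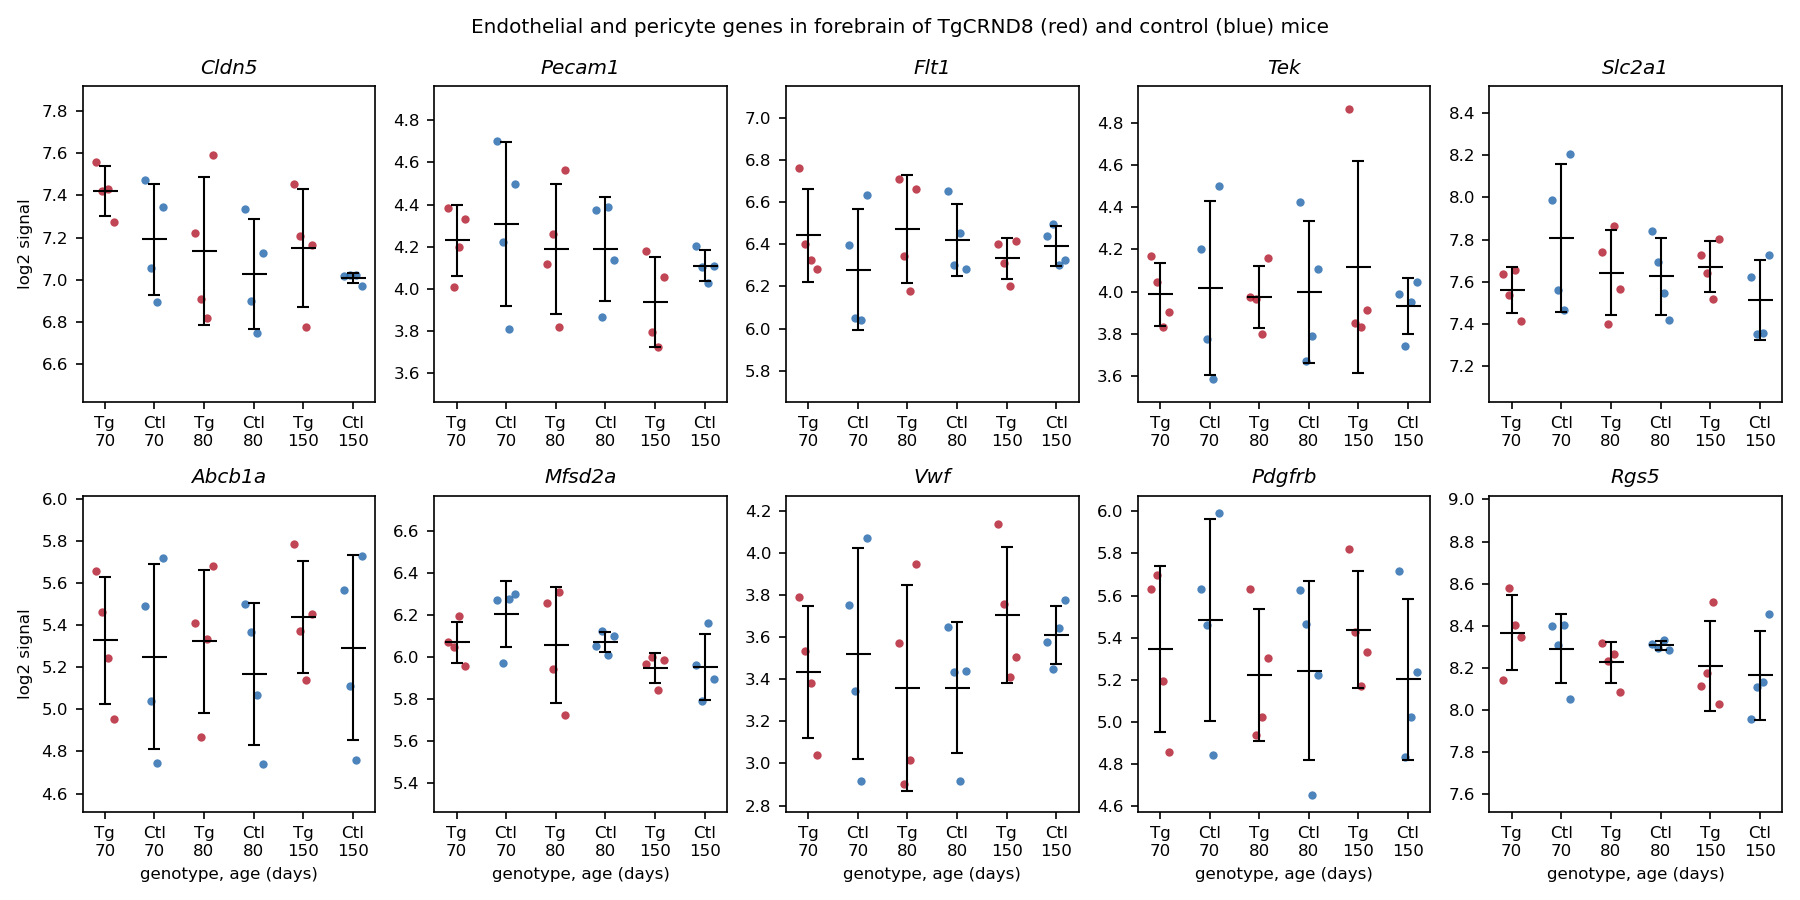
Log2 signal of the 10 vessel genes on each array (points) with the mean and SD of the 4 mice per group (bars), TgCRND8 (Tg, red) left of control (Ctl, blue) at 70, 80 and 150 days; every panel spans 1.5 log2 on its own scale. The groups overlap in every panel at every age, and the Tek value of 4.87 in 1 TgCRND8 mouse of day 150 stands apart.

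The 6 group means of a gene lay within 0.18 log2 (Tek) to 0.41 log2 (Cldn5) of each other. Ranked from high to low, neighbouring means were at most 0.06 apart in Flt1 and at most 0.23 apart in Cldn5. Of the 50 neighbouring pairs over the 10 genes, 2 were farther apart than the standard error of a difference between 2 means of 4 mice: TgCRND8 and control mice of day 70 in Cldn5, and 1 pair in Mfsd2a, 0.13 apart. Neighbours in a ranking are close by construction, so this count is a description only. Control mice of day 70 had the highest mean in 4 genes (Pecam1, Slc2a1, Mfsd2a and Pdgfrb), and control mice of day 150 the lowest in 5 (Cldn5, Tek, Slc2a1, Pdgfrb and Rgs5).

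Age was compared within each genotype. Between day 150 and day 70, 0 of the 10 genes passed in TgCRND8 mice against 0.0879% of all genes, and 0 of 10 passed in controls against 0.022%. Between day 150 and day 80, 0 of 10 passed in TgCRND8 mice against 0.022% of all genes, and 0 of 10 in controls against 0%. Between day 80 and day 70, 0 of 10 passed in either genotype, against 0% in both. At an unadjusted p under 0.05, 2 of the 10 were lower at day 150 than at day 70 in controls, Slc2a1 and Mfsd2a, where 7.99% of all genes reached that level. In the other 5 age comparisons the count was 0 of 10. The shares of all genes at that level were 2.64%, 6.76% and 5.72% in TgCRND8 mice (day 150 against 70, 150 against 80 and 80 against 70), and 3.41% and 3.24% in controls (150 against 80 and 80 against 70).

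Slc2a1 averaged 7.51 ± 0.19 in controls of day 150 and 7.81 ± 0.351 in controls of day 70 (SD, n = 4 each), a difference of -0.29 (interval -0.57 to -0.02; limma adjusted p = 0.620). Without the fourth day 70 control, which had low Xist, the difference was -0.16, and over all ways of leaving out 1 array it lay between -0.40 and -0.16. Mfsd2a averaged 5.95 ± 0.156 in controls of day 150 and 6.20 ± 0.156 in controls of day 70, a difference of -0.25 (interval -0.47 to -0.04; limma adjusted p = 0.576). Leaving out 1 array moved it between -0.33 and -0.20. In TgCRND8 mice the same comparison gave 0.11 for Slc2a1 and -0.12 for Mfsd2a, and the most negative and most positive age differences were those of Pecam1, -0.29 at day 150 against day 70 (interval -0.62 to 0.04), and Vwf, 0.34 at day 150 against day 80 (interval -0.12 to 0.81).

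Of the 10 genes, 5 were read by more than 1 probe set, which gives a check of each value on the same RNA. The 3 probe sets of Slc2a1 followed each other closely over the 24 arrays after group means were subtracted, with Pearson r of 0.79 to 0.83. All 3 read lower in TgCRND8 mice at day 70, by -0.25, -0.26 and -0.19. At day 150 they gave 0.16, 0.07 and -0.15, so the day 150 direction of Slc2a1 depended on the probe set. The 3 brightest probe sets of Rgs5 also moved together (r of 0.67 to 0.89), and their day 150 differences were 0.04, 0.01 and 0.0035, while the fourth and dimmest had r of 0.22 to 0.36 with them. Flt1 had 4 probe sets with r of 0.17 to 0.81 and day 150 differences of -0.06, 0.10, 0.09 and 0.07 in order of brightness. The second probe set of Pdgfrb (r = 0.54 with the first) read -0.01 at day 150 where the first read 0.24. The second of Abcb1a (r = 0.74) read -0.07 where the first read 0.15. No probe set of the 10 genes passed at any age.

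**Figure D3:**
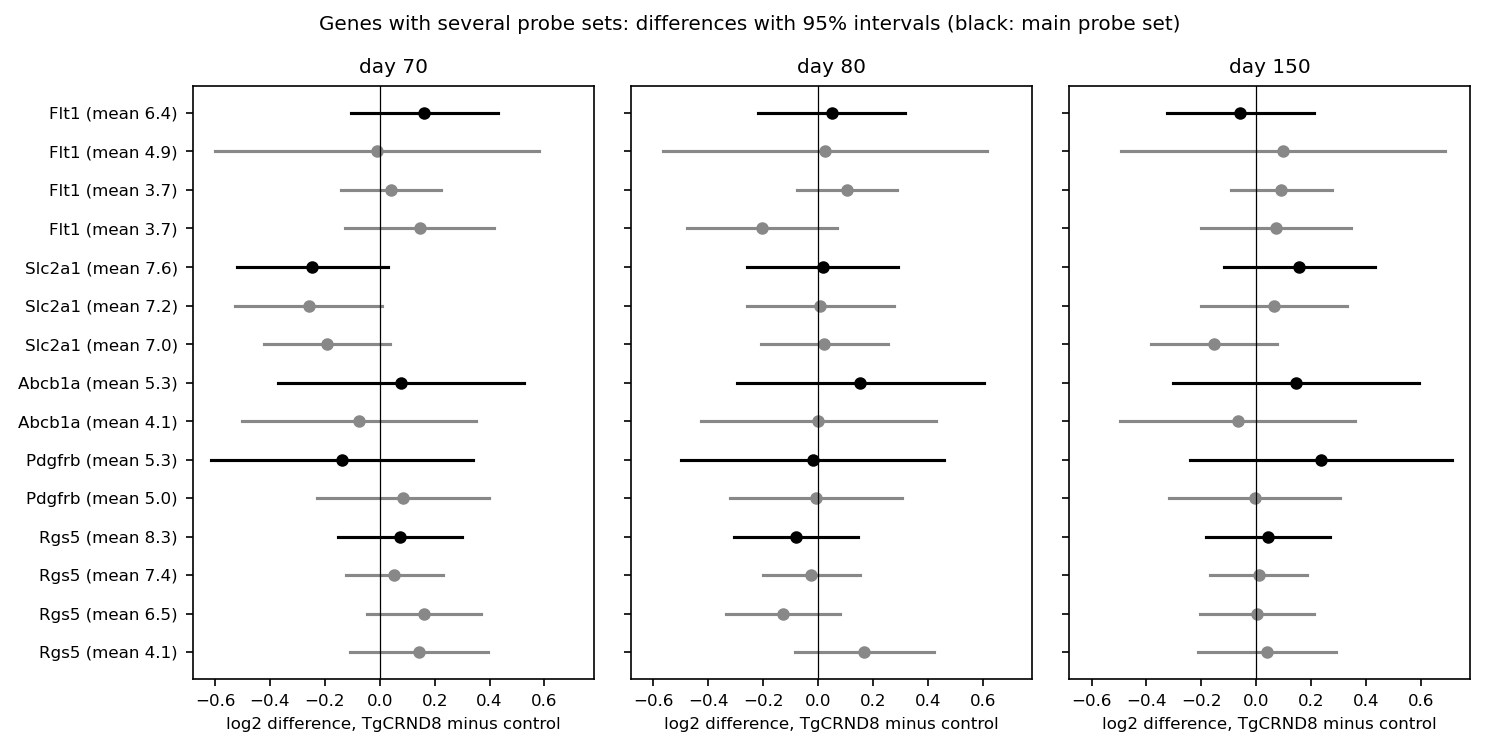
Difference in log2 signal between TgCRND8 and control forebrain with 95% intervals for each probe set of the 5 genes that have several, labelled with the mean log2 signal of the probe set; black marks the brightest, used as the main value. At day 70 the 3 Slc2a1 probe sets sit together between -0.26 and -0.19, and at day 150 they spread between -0.15 and 0.16.

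In most of these genes individual mice of a group differed by more than in the typical gene. The within-group standard deviation was 0.38 log2 for Pdgfrb, larger than that of 99.8% of all genes, 0.37 for Vwf, 0.36 for Abcb1a, 0.32 for Tek, 0.25 for Pecam1 and 0.24 for Cldn5. It was 0.21 for Slc2a1 and 0.20 for Flt1, and the median over all genes was 0.14. Rgs5 at 0.16 and Mfsd2a at 0.15 lay nearer that median, above 69.7% and 62.4% of genes.

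These deviations were shared. With group means subtracted over the 24 arrays, 8 genes (all but Mfsd2a and Rgs5) correlated positively in each of their 28 pairs, with Pearson r of 0.31 to 0.88 and a median of 0.65. The pattern followed the replicate number. The mean deviation of the 10 genes was above 0 in the first mouse of all 6 groups (0.09 to 0.25) and below 0 in the third mouse of all 6 (-0.34 to -0.03), and the number held 58.8% of its variance over the 24 arrays. With the means of the 4 numbers also subtracted, the 28 pairs had a median r of 0.42, in a range of -0.19 to 0.79. The labels do not say what the numbers stand for, and their part in the pattern was not tested. The closest pair was Cldn5 and Vwf (r = 0.88, Spearman rho = 0.86, and r = 0.86 without the 2 arrays farthest from the median of Cldn5), with r = 0.92 among TgCRND8 mice and 0.83 among controls. Slc2a1 and Abcb1a, the barrier transporters, had r = 0.82 (rho = 0.77), with 0.56 among TgCRND8 mice and 0.94 among controls. Vwf and the pericyte receptor Pdgfrb had r = 0.81 (rho = 0.83), with 0.81 among TgCRND8 mice and 0.84 among controls.

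Mfsd2a and Rgs5 did not follow the others. Rgs5 had r of -0.49 to -0.21 with the 8 genes, so it read slightly lower in mice where they read higher, including Pdgfrb (r = -0.29). Mfsd2a had r of -0.35 to 0.42 with them, median -0.01, and r = 0.01 with Rgs5. In these correlations the pericyte gene Pdgfrb went with endothelial genes and the endothelial gene Mfsd2a did not. The 8 genes were set apart by the same correlations, so this grouping is a description only, and a division by cell type was not tested.

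Many genes outside the vessel wall deviated in the same way. The main axis along which all 18193 genes varied within groups held 25.3% of that variance, and the mean deviation of the 10 genes on an array had r = 0.88 with it. The replicate number held 64.9% of the variance of this axis, again with the first mouse of all 6 groups on 1 side and the third mouse of all 6 on the other. Of the 10 genes, 8 had an absolute r of at least 0.5 with this axis, and so did 29.4% of all genes. With the axis removed the same 28 pairs had a median r of 0.28, in a range of -0.38 to 0.67, and Slc2a1 with Abcb1a kept r = 0.67 and Cldn5 with Vwf 0.60. Pdgfrb then had r between -0.38 (Pecam1) and 0.33 (Abcb1a) with the others of the 8. Mfsd2a had r between -0.41 (Pecam1) and 0.55 (Slc2a1) with the 8. Pairs among Cldn5, Pecam1, Flt1, Tek and Vwf all stayed positive, between 0.15 (Pecam1 and Vwf) and 0.60 (Cldn5 and Vwf). Rgs5 had r between -0.36 (Flt1) and 0.05 (Abcb1a) with the 8. The grouping above therefore held only in part apart from the axis, and these subsets were picked from the same correlations. The 5 genes outside the set whose deviations were most like the mean of the 10 were Vdac2 (r = 0.93), Maged1 (0.93), Magee1 (0.92), Copa (0.91) and Vgf (0.91), over 24 arrays. Vdac2 encodes a channel of the outer mitochondrial membrane, Copa a coat protein of Golgi vesicles and Vgf a secreted neuronal peptide precursor. As a measure of RNA quality, the log2 signal of the 3′ minus the 5′ probe set of β-actin lay between 0.663 and 0.877 on the 24 arrays, and had r = -0.28 (rho = -0.32) with the mean deviation of the 10 genes. All these points share arrays and hybridisations, and what the axis reflects was not tested.

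**Figure D4:**
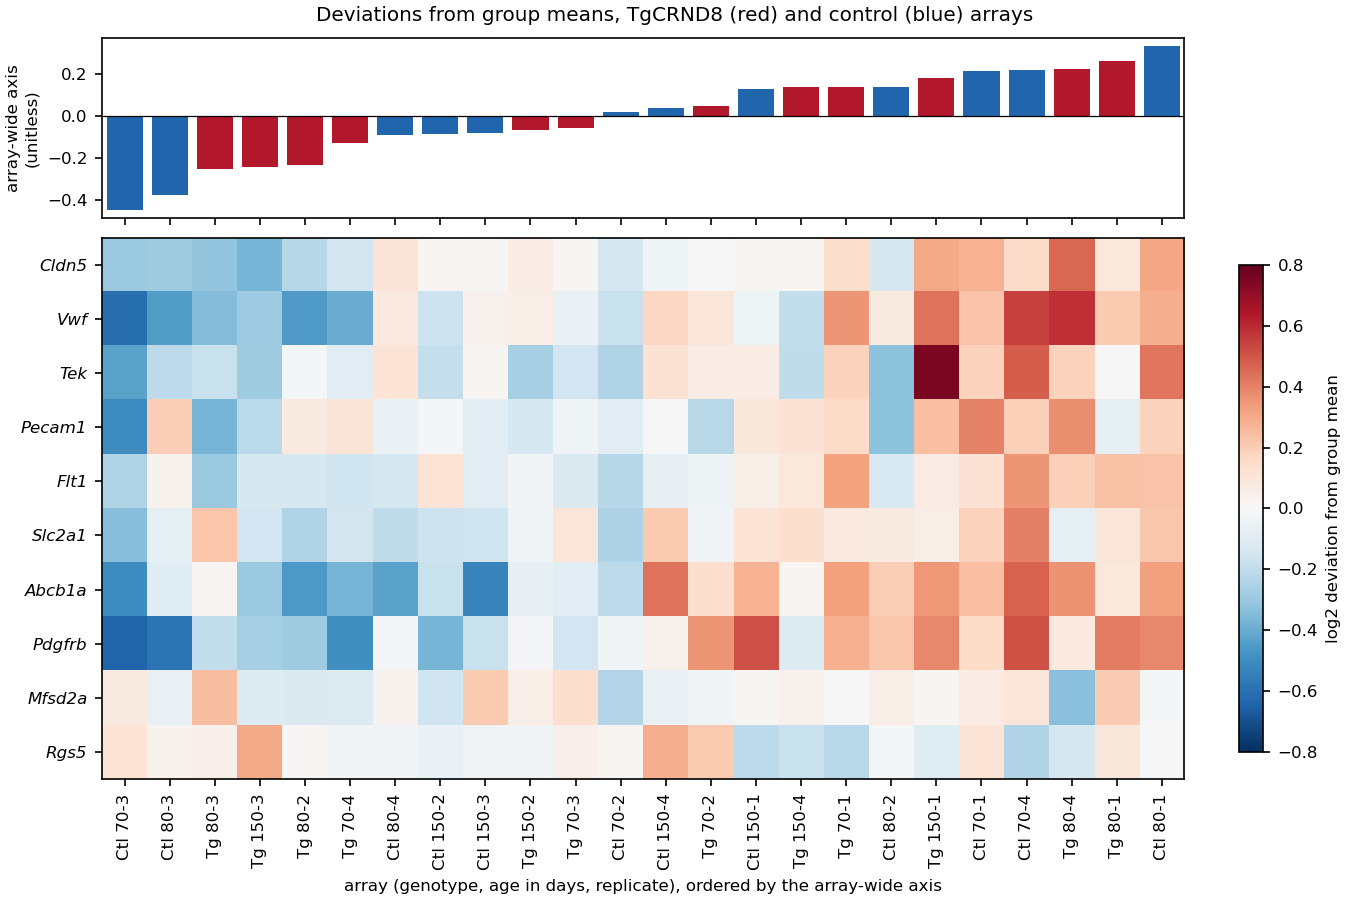
Upper panel, position of each array on the main axis of within-group variation over all genes (unitless; red TgCRND8, blue control); lower panel, deviation of each vessel gene from its group mean in log2 on the same arrays, labelled by genotype, age in days and replicate number. Except Mfsd2a and Rgs5, the genes turn from mostly low at left to mostly high at right, and both genotypes lie at both ends.

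The promoters of genes that moved together and of those that did not are shown as RefSeq gives them on GRCm38.p6, in windows of 300 bases that end 50 bases after the annotated start of the gene. Windows of 7 of the 10 genes were available for printing, and 4 are given: Slc2a1 and Abcb1a, the most closely correlated pair among those 7, and Mfsd2a and Rgs5, which did not follow the rest. Capitals mark the CCAAT box on either strand, where ATTGG is its reverse complement.
Slc2a1 (chr4:119108495-119108794, plus strand): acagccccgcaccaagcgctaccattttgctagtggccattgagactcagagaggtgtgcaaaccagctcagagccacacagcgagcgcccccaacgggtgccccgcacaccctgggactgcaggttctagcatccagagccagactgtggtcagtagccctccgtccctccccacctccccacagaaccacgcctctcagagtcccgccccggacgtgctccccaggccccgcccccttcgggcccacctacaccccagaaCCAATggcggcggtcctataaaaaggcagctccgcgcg
Abcb1a (chr5:8566841-8567140, plus strand): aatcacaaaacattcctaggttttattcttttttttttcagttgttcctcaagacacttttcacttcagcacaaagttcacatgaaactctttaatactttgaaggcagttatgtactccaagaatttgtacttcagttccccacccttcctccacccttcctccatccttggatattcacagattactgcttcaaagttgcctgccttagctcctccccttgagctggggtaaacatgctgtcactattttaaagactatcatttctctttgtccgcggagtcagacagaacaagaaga
Mfsd2a (chr4:122961139-122961438, minus strand): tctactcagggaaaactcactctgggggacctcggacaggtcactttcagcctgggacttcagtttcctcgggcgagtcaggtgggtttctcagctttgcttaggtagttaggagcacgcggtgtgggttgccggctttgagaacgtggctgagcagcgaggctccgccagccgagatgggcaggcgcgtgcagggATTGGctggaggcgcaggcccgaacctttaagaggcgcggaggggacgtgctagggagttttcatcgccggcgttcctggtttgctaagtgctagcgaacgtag
Rgs5 (chr1:169655251-169655550, plus strand): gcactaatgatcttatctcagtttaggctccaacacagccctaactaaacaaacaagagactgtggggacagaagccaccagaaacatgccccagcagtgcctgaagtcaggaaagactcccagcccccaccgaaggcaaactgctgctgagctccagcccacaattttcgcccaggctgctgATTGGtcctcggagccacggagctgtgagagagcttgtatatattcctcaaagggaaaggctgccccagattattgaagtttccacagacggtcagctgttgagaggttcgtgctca

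The CCAAT box occurred in 4 of the 7 windows (Cldn5, Slc2a1, Mfsd2a and Rgs5), and in 37.4% of 32851 mouse promoter windows of the same length. Its first base lay 12 bases after the start in Slc2a1, with the start counted as 0, at -54 in Mfsd2a and at -67 in Rgs5, and no match was found in the Abcb1a window. AGGAAG, which contains the GGAA core bound by ETS factors, occurred in 2 of 7 (Flt1 and Abcb1a, 2 copies each) and in 35.4% of all windows. The shorter core alone was not counted. TATAAA occurred in 2 of 7 (Flt1 and Slc2a1) and in 13.6% of all, and ACGTG in 2 of 7 (Slc2a1 and Mfsd2a) and in 19.6%. Both strands were searched for each motif, no match overlapped one of another motif in these 7 windows, and the motifs were chosen after the sequences had been seen. CCAAT and ACGTG occurred both in genes that varied together and in genes that did not. AGGAAG and TATAAA were absent from Mfsd2a and Rgs5, but also from Cldn5 and Tek, which varied together with the others. These 7 windows are too few to link a motif with shared variation, and no such link was tested.

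A wider set of 129 vessel genes in 9 named lists, none of them among the 10, had 125 members measured. The lists group genes by name, and which cells of the forebrain gave each signal was not tested. Of these, 0 passed at day 70, 0 at day 80 and 0 at day 150 by limma. They divided into 54 higher and 71 lower in TgCRND8 mice at day 70, 63 and 62 at day 80, and 61 and 64 at day 150. At an unadjusted p under 0.05 there were 6 of 125 (4.8%), 3 (2.4%) and 4 (3.2%), near the shares given above for all genes. The median difference was -0.02, 0.0058 and -0.0022 log2 at the 3 ages.

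Among junction and surface genes (14 measured), 6 read higher and 8 lower at day 150, with Cd34, a sialomucin of the vessel surface, at 6.55 in TgCRND8 and 6.32 in control forebrain and Esam, an adhesion molecule, at 5.89 in TgCRND8 and 6.06 in control forebrain. Among barrier transporters (16 measured), 11 read higher and 5 lower. The transferrin receptor Tfrc, which imports iron, averaged 9.04 ± 0.104 in TgCRND8 and 8.77 ± 0.138 in control forebrain at day 70 (SD, n = 4 each), a difference of 0.27 whose limma unadjusted p was 0.00123 and adjusted p 0.9997. Its difference was 0.12 at day 80 and 0.08 at day 150. Tfrc is also expressed outside vessels.

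Among endothelial receptors and transcription factors (19 measured), 8 read higher and 11 lower at day 150. Klf2, a factor induced by blood flow, stood at 4.88 in TgCRND8 and 5.15 in control forebrain, and the Notch ligand Dll4 at 3.96 in TgCRND8 and 4.20 in control forebrain. Of 13 vascular growth factors 9 read higher and 4 lower, and Apln, the apelin precursor, averaged 6.73 ± 0.171 in TgCRND8 and 7.02 ± 0.136 in control forebrain at day 150. The Apln groups did not overlap, as for 3% of all genes at that age, and its difference of -0.29 did not pass (limma adjusted p = 0.953).

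In the Wnt pathway that maintains the barrier (12 measured), 3 read higher and 9 lower at day 150. Fzd4, the receptor for norrin, read 5.93 ± 0.0864 in TgCRND8 and 6.14 ± 0.0101 in control forebrain at day 70 without overlap, as for 2.36% of all genes, but 6.18 ± 0.118 in TgCRND8 and 6.004 ± 0.0655 in control forebrain at day 80, so the sign of its difference was not the same at the 2 ages. At day 150 the difference of Fzd4 was -0.12. Of 14 genes of endothelial activation and leak, 9 read higher and 5 lower at day 150, with Cav1, the coat protein of caveolae, at 6.44 in TgCRND8 and 6.18 in control forebrain, a difference of 0.26 (limma unadjusted p = 0.0371). The difference of F3, the tissue factor that starts clotting, was -0.35 at day 70, -0.32 at day 80 and -0.01 at day 150.

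Of 17 further pericyte genes, 6 read higher and 11 lower at day 150, with Notch3 at 4.19 in TgCRND8 and 4.41 in control forebrain and the potassium channel subunit Abcc9 at 4.05 in TgCRND8 and 3.84 in control forebrain. Of 10 smooth muscle genes, 4 read higher and 6 lower, and the largest difference was -0.07 for Myh11, the smooth muscle myosin. Of 11 basement membrane genes, 5 read higher and 6 lower, with the collagen Col4a2 at 6.82 in TgCRND8 and 6.58 in control forebrain. Of 8 genes of astrocyte endfeet, which cover the vessels, 2 read higher and 6 lower. The 2 higher were Mlc1, with a difference of 0.18 (limma unadjusted p = 0.0355, adjusted p = 0.9995), and the water channel Aqp4. Aqp4 stood at 9.25 in TgCRND8 and 9.09 in control forebrain. The largest of the 6 lower differences was -0.08, for Hepacam.

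Markers of other tissues and cells were read beside these. The mean log2 signal of 6 forebrain neuron genes lay between 9.59 and 9.96 on all 24 arrays, and that of 6 cerebellum and brainstem genes between 3.21 and 3.62 on 23 arrays. The fourth control of day 150 stood apart at 4.02, with the Purkinje cell gene Pcp2 at 6.27 (at most 4.56 on the other arrays) and Gabra6, a receptor subunit of cerebellar granule cells, at 4.58 (at most 3.18). Without that array 0 of the 10 vessel genes passed at day 150, and the differences kept their direction. Those of Abcb1a (0.29), Rgs5 (0.14), Mfsd2a (-0.02) and Vwf (0.15) moved by more than 1.5 times. Of 11 meningeal fibroblast genes 5 read higher and 6 lower at day 150, of 9 choroid plexus genes 2 higher and 7 lower, and of 5 blood genes 2 higher and 3 lower, none of which passed. At day 80 the counts were 2 higher and 9 lower for meninges, 6 and 3 for choroid plexus and 4 and 1 for blood. At day 70 they were 8 and 3, 1 and 8, and 1 and 4, and none passed at either age. Alas2, the haem synthesis enzyme of red cells, read 6.97, 5.27, 7.77 and 6.31 in TgCRND8 mice of day 80, against 5.42, 5.03, 5.45 and 6.27 in controls of that age, a difference of 1.04 (limma unadjusted p = 0.00546, adjusted p = 0.9996). The TgCRND8 arrays at 6.97 and 7.77 had low Xist, as did the control arrays at 5.42 and 6.27. The part of Xist status in the Alas2 difference was not tested. The probe sets of Hba-a1, Slc4a1 and Hba-a2 were below the lower quartile on 24, 23 and 12 of the 24 arrays. The list mean of the blood genes at day 80 was 3.69 to 4.20 in TgCRND8 and 3.64 to 3.85 in control forebrain. The list mean at day 150 was 5.19 to 5.49 in TgCRND8 and 5.27 to 5.45 in control forebrain for meninges. It was 5.09 to 5.51 in TgCRND8 and 5.29 to 5.52 in control forebrain for choroid plexus, and 3.72 to 3.89 in TgCRND8 and 3.71 to 3.93 in control forebrain for blood. Their part in the vessel values was not tested. All 9 microglia genes read higher in TgCRND8 forebrain at day 150, by a median of 0.27, and C1qa and C1qc, subunits of complement C1q, passed (limma adjusted p = 0.00258 and 0.00278).

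**Figure D5:**
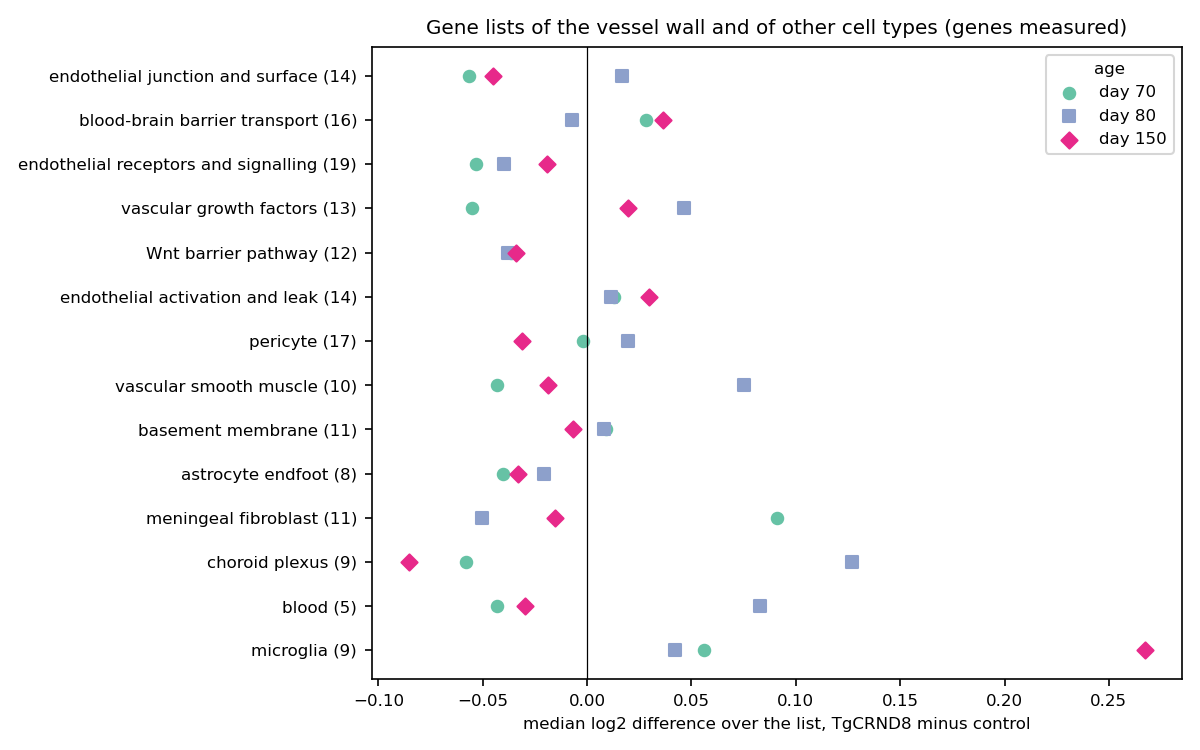
Median difference in log2 signal between TgCRND8 and control forebrain for 10 lists of genes of the vessel wall and endfeet and 4 of other cell types, with the number of genes measured, at days 70 (circles), 80 (squares) and 150 (diamonds). The vessel and endfoot lists lie between -0.06 and 0.08 at every age, and the microglia list lies at 0.27 at day 150.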

How the data were processed

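RNA of forebrain, separated from the olfactory bulb and from cerebellum and brainstem, was purified with TRIzol and a column, converted to biotin-labelled cRNA from an oligo(dT) primer and hybridised to Affymetrix arrays, per the labels' protocols. The deposited values are log2 signals per probe set, made by the authors; summarisation and normalization are not given in the sources used here, and nothing further was done to them. Array medians were 4.28 to 4.38, and Pearson r between arrays was 0.989 to 0.998.

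Of 45101 probe sets, 34945 carried 1 gene symbol in the platform annotation, 932 several and 9160 none, and 64 were array controls. Each gene was represented by its brightest probe set on average over the 24 arrays (18193 genes). The 6 group means entered 1 limma fit of all arrays (18 residual and 7.47 prior degrees of freedom), with 11 contrasts, 95% intervals and Benjamini-Hochberg adjustment over all genes. With 4 arrays a group, the standard error of a genotype difference had a median of 0.0977 log2. For single genes an exact permutation test of 4 against 4 arrays cannot give a p below 0.0286. The 10 genes, the 16 lists and the tests were chosen with earlier results of these data known. Named are the 10 genes, from each list the genes that passed and otherwise up to 4 of the largest differences, the 5 genes most like the 10 in their deviations, and Gfap, Cst7 and Xist.

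Replicate numbers in the labels are not said to mark a shared batch. Deviations of same-numbered arrays correlated above 0.1 in 35 of 60 pairs (median r 0.14, against -0.04 for unlike numbers), and in all 4 pairs in the day 150 genotype comparison alone, where the number was therefore also taken as a pairing. The fit was tested on simulated arrays of 18193 genes for the day 150 comparison. It recovered 73% of 100 genes shifted by 0.5 log2 and 100% of 100 genes shifted by 1, with 10 false calls. The shifted genes were picked at random from all genes, and the simulated noise was independent between genes. Most of the 10 vessel genes varied more than the typical gene and shared deviations, so these shares do not describe the vessel genes. Alternatives covered the scaling (quantile normalization or median centring), the probe sets (their mean, or each singly), the dimmest 40% of genes left out, and the model (array weights, trend and robust settings, a replicate block, an Xist covariate). They also covered a threshold of 0.10, a fit of the compared arrays alone, and each array left out in turn. Promoter sequences are from RefSeq. limma 3.58.1 ran under R 4.3.3, and figures were drawn with matplotlib 3.10.9 under Python 3.11.15.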

Additional observations from a re-analysis of the deposited data

Results flagged for a closer look

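In 3 of 60 checks, 10 genes in 6 groups of 4 mice, 1 mouse lay far from the other 3 for the spread of its group (Dixon's ratio of the gap to the range); chance gives about 1 in 20. Tek in TgCRND8 mice of day 150 had a ratio of 0.924, since 1 mouse read 4.87 and the next 3.91. Mfsd2a in controls of day 70 had a ratio of 0.913, with 1 mouse at 5.97 and the next at 6.27. Cldn5 in controls of day 150 had a ratio of 0.891, with 1 mouse at 6.97 and the next at 7.02, in a group whose standard deviation was 0.0243 log2.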

How the results depend on the processing

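The count of vessel genes that passed was 0 of 10 under all 262 combinations of comparison and alternative, the replicate block included (0 of 10 in every comparison, also in the pairs of day 150 alone), and the lowest adjusted p of any of the 10 genes was 0.305 between genotypes at 1 age and 0.17 between ages, both without the 5 arrays of low Xist. Of the 30 genotype differences, 20 changed sign somewhere, all of them small beside their intervals; the cause was not tested. Leaving out 1 array gave these ranges. At day 70 the lowest and highest values were -0.24 and 0.056 for Pecam1, -0.17 and 0.13 for Tek, -0.089 and 0.24 for Abcb1a, -0.29 and 0.10 for Vwf, -0.35 and 0.033 for Pdgfrb, -0.0043 and 0.15 for Rgs5. At day 80 the lowest and highest values were -0.046 and 0.21 for Cldn5, -0.13 and 0.12 for Pecam1, -0.029 and 0.15 for Flt1, -0.13 and 0.12 for Tek, -0.057 and 0.10 for Slc2a1, -0.10 and 0.10 for Mfsd2a, -0.20 and 0.15 for Vwf, -0.22 and 0.11 for Pdgfrb. At day 150 the lowest and highest values were -0.088 and -0.015 for Flt1, -0.067 and 0.28 for Tek, -0.031 and 0.29 for Abcb1a, -0.056 and 0.067 for Mfsd2a, -0.052 and 0.19 for Vwf, -0.058 and 0.14 for Rgs5.

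With array weights, the difference was 0.0061 for Tek at day 70, 0.0022 for Pecam1 and 0.014 for Mfsd2a at day 80. With Xist as covariate, Tek at day 70 was 0.052. With median centring, Slc2a1 at day 80 was -0.0074 and Mfsd2a at day 150 was 0.022. With the mean of all probe sets, Flt1 was -0.0056 at day 80 and 0.051 at day 150.

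The alternatives that follow, leaving out single arrays in the control age comparison and the paired fit of day 150 were chosen after seeing the data. With the first principal component as covariate, Tek was 0.020 at day 70, and at day 80 Pecam1 was 0.017, Tek 0.0038, Vwf 0.044 and Pdgfrb 0.031. Without the 5 arrays of low Xist, Tek was 0.13, Vwf 0.10, Pdgfrb 0.033 and Rgs5 -0.0043 at day 70, and at day 80 Pecam1 was 0.28, Tek 0.33, Vwf 0.25, Slc2a1 -0.14 and Pdgfrb 0.059, where 2 mice per group were left. Over all genes the count at day 150, 22, ranged between 12 and 35 over the alternatives. Without the low-Xist arrays it was 35 between genotypes at day 80 (0 with them), 322 between TgCRND8 mice of days 150 and 80 (4 with them) and 162 between TgCRND8 mice of days 80 and 70 (0 with them).

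Leaving out the dimmest 40% of genes removed Vwf, Pecam1 and Tek, and the fit of only the arrays compared gave nothing for the mean over ages or its change, which use all arrays. With correlations to the arrays of other groups averaged by replicate number, 13 of 24 arrays had the highest mean for their own number.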
